A study of Mus musculus with 4 samples.

Results

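The 55 genes described here encode the DNA replication machinery and the regulators of the passage from G1 to S phase. They were taken by symbol from a fixed list, and all 55 were found among the 41288 genes of the deposited table. MC3T3-E1 cells, a mouse pre-osteoblastic line derived from skull bone and labelled wild type, were sequenced as 1 library in each of 4 groups: untreated control, mechanical tensile strain of 2500 microstrain at 0.5 Hz for 1 h per day, PC-3 conditioned medium (PC-3 is a line from a human prostate cancer), and both treatments together. All groups are cultures of the same line, in DMEM with serum per the labels. No group received medium conditioned by other cells, and neither the length of treatment nor the time from the last bout of strain to harvest is given in the sources used here.

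Before S phase, the origin recognition complex, CDC6 and CDT1 load the MCM helicase onto DNA, and geminin blocks reloading once replication has begun. The CDC7 and DBF4 kinase then lets CDC45 and GINS join the helicase, primase and the polymerases copy the strands behind it, and PCNA, a ring loaded by replication factor C, holds the polymerases on DNA. Many of these genes are targets of E2F transcription factors, which the retinoblastoma protein restrains until cyclin-dependent kinases inactivate it. In growing bone cells these transcripts are used as a sign of proliferation.

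With 1 library per group no difference has a replicate check, so no test was made and no p-value is given. Library depth was 10007546 to 10997085 counts. Levels are RPKM (reads per kilobase of gene model, scaled to library total), and a fold is the ratio of a gene's shares of the counts of a pair of libraries, with a 95% Clopper-Pearson interval that covers counting error only. A gene was compared if it had at least 30 counts in the higher library, which all 55 members had in every comparison. The table heads its columns only O, L, T and LT. L was read as loading and T, by elimination, as conditioned medium. O was read as the control and LT, which joins L and T, as both treatments. Were the reading of L and T reversed, strain and conditioned medium would swap in every statement below except the comparison of both treatments with control. Of the osteoblast markers, Col1a1 stood at 460 to 587 RPKM, Sparc at 494 to 570 and Runx2 at 12.3 to 16.3. Sp7 had 3.32 RPKM in the control, 3.18 with strain, 2.17 in conditioned medium and 1.80 with both. Alpl lay under 1 RPKM and Bglap had 1 to 5 counts. Among 17 markers of leukocytes, endothelium, epithelium, fat and muscle, only Lyz2 (24.2 to 30.7) and Acta1 (0.827 to 2.14) reached 1 RPKM, and the defining markers Ptprc, Epcam, Krt18, Adipoq and Myod1 were at 0 counts in all 4 libraries. The leukocyte markers summed to 31.5 RPKM in the control, 25.1 with strain, 28.9 in conditioned medium and 24.7 with both, and the muscle markers to 2.74, 2.27, 1.59 and 1.18. The part of these lists in the results was not tested. In bulk RNA, fewer cycling cells and less of each transcript per cell cannot be told apart.

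The E2F-type words in the promoters are shown as a description. The choice of members by symbol did not use them directly. Many of these genes are known E2F targets, however, so the words are not independent of that choice. RefSeq promoter windows (GRCm38.p6, 250 bases before to 50 after a start site) were matched for 45 of the 55 members. The words TTTCGCGC, TTTGGCGC and TTTCCCGC were searched on both strands. At least 1 of them was in the window of 18 of the 45 members, against 4.16% of 9188 genes with at least 30 counts and a matched promoter, and 2.12% of all 27025 genes with a promoter. The shorter word GCGGGAA was in 42.2% of the members' promoters and in 10.0% of those of genes with at least 30 counts. Its reverse complement lies within TTTCCCGC, so every TTTCCCGC match is also a GCGGGAA match. The words were not particular to the members. In a list of 46 other replication and S-phase genes, described below, 14 of 36 with a promoter (38.9%) held an 8-base word. GCGGGAA was in 44.4% of those promoters. In 10 members an 8-base word lay wholly before the RefSeq start site of its window. Their stretches follow on the gene's strand, with the words in capitals on either strand. A word on the opposite strand therefore reads as its reverse complement.
Mcm5: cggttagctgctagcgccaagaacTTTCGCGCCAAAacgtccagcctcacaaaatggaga
Mcm6: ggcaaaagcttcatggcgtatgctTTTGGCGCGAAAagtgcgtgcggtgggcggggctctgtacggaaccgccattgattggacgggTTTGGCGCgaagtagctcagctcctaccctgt
Mcm7: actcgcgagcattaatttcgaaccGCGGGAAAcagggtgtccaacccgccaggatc
Orc1: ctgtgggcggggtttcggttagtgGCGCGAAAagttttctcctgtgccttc
Cdc6: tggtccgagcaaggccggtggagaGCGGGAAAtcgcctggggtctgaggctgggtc
Gins3: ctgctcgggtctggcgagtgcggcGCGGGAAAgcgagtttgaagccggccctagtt
Pola1: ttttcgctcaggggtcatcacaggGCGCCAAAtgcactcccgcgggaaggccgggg
Rfc3: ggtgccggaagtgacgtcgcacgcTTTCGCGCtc
E2f7: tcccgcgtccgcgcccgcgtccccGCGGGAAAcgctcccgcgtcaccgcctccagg
Uhrf1: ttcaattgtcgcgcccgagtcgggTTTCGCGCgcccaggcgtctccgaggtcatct

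These stretches lie at chr8:75109332-75109391 (plus strand) for Mcm5, chr1:128359721-128359839 (minus) for Mcm6, chr5:138172017-138172072 (minus) for Mcm7, chr4:108579403-108579453 (plus) for Orc1 and chr11:98907989-98908044 (plus) for Cdc6. The others lie at chr8:95633494-95633549 (plus) for Gins3, chrX:93632262-93632317 (minus) for Pola1, chr5:151651209-151651242 (minus) for Rfc3, chr10:110745217-110745272 (plus) for E2f7 and chr17:56304104-56304159 (plus) for Uhrf1. The stretches of Orc1, Cdc6 and Uhrf1 themselves lie inside the gene span of the deposited table, before a RefSeq start site further in. In Mcm5 and Mcm6 a pair of words on opposite strands overlaps, and Mcm6 holds a further copy closer to the start. Of the mitosis genes, 1 of 33 with a promoter (3.03%) held an 8-base word, while TTTGAA or TTTAAA, the words of the CHR element found in many mitotic promoters, was in 81.8% of theirs. It was in 28.9% of the replication genes' promoters, near the 22.7% of genes with at least 30 counts and the 30.6% of all genes. A match is a description of letters and not of binding.

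Across the 4 libraries the replication genes had a common order. The strain library was the highest of the 4 for 45 of 55 members, against 24.5% of all 12177 genes with at least 30 counts in some library. Both conditioned-medium libraries lay below both libraries in ordinary medium for 42 members, against a background of 32.8%, and above both for 2 members (Gins4 and Pole2), against 19.5%. Strain highest with both conditioned-medium libraries under the control described 36 members, against 13.6% of all genes. This order was not particular to the members. In the list of 40 mitosis genes described below, strain was the highest library for all 40. Strain highest with both conditioned-medium libraries under the control described 39 of them. The members' summed counts came to 1914 CPM (counts scaled to library total) in the control (exact Poisson interval 1888 to 1940), 2161 with strain (2133 to 2189), 1604 in conditioned medium (1580 to 1628) and 1656 with both (1631 to 1682). The span was narrow: a member's highest library exceeded its lowest by a median of 1.39-fold, from 1.12-fold for Gins4 to 2.31-fold for E2f8.

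**Figure D1:**
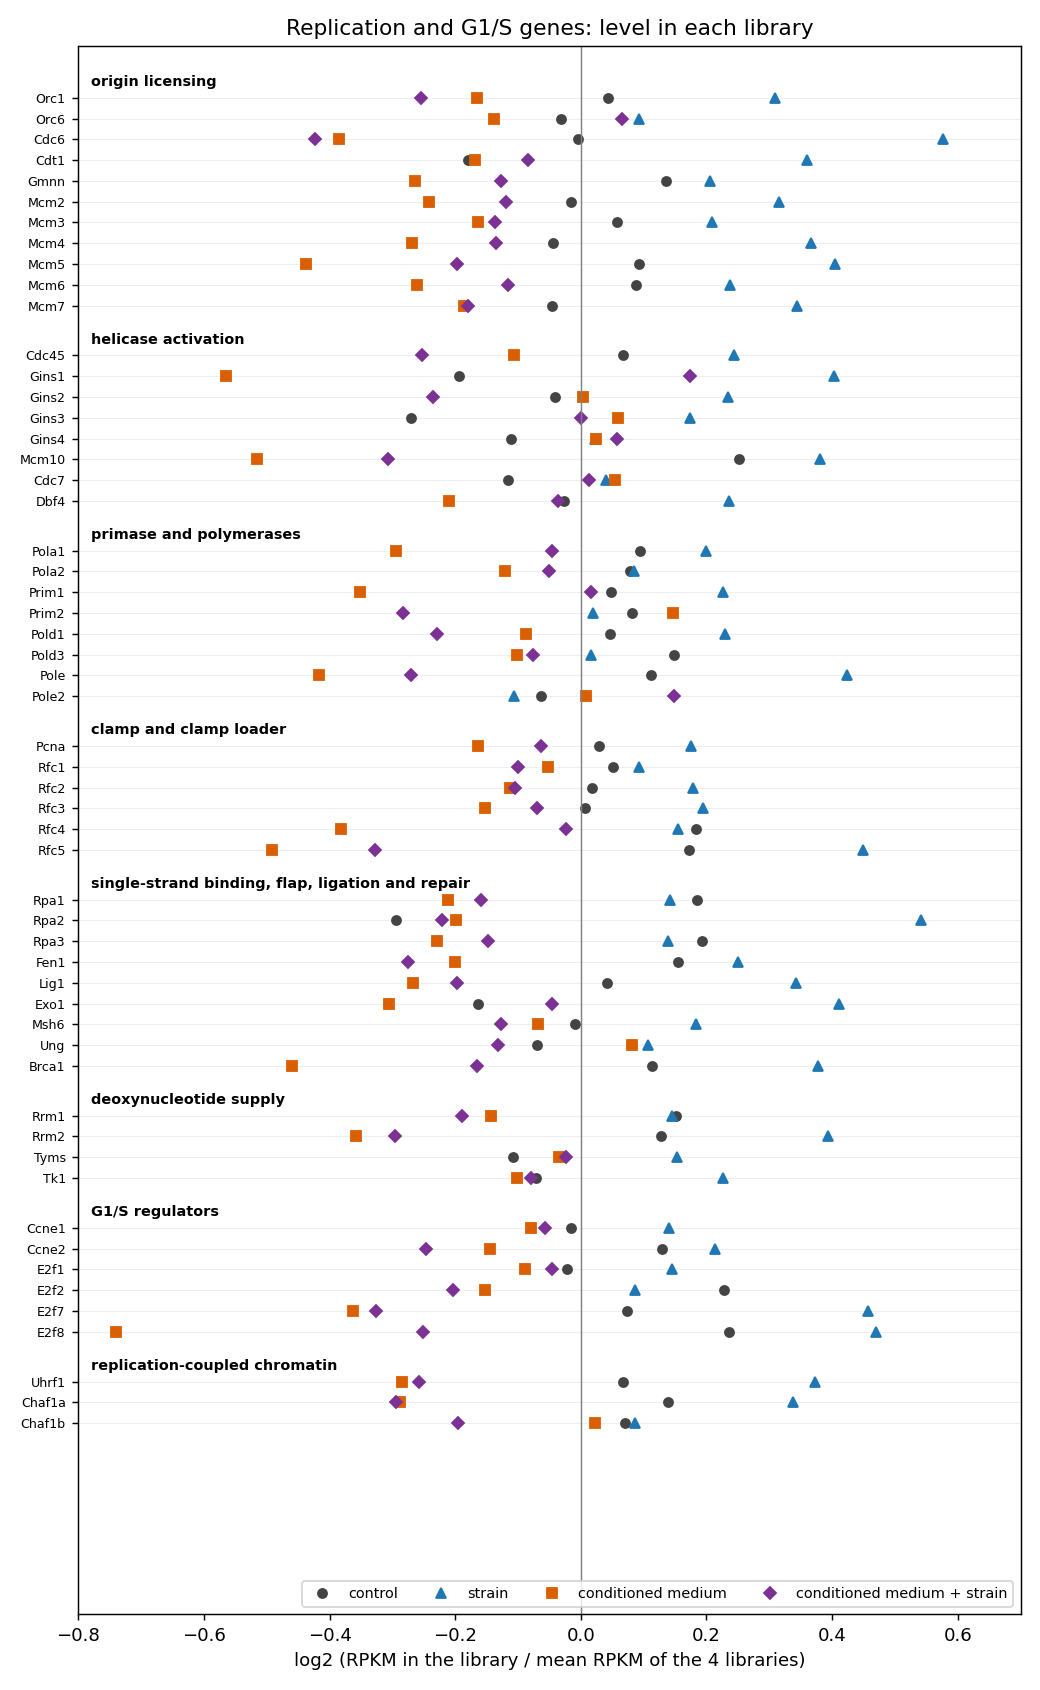
Level of each of the 55 members in each library, as log2 of its RPKM over its mean RPKM in the 4 libraries (horizontal axis), with genes grouped by role (vertical axis) and 1 point per library. The strain library (triangles) is the highest point for 45 members, and the conditioned-medium libraries (squares and diamonds) lie left of both others for 42.

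The MCM2-7 subunits, which form the ring of the replicative helicase, kept the same ranking of treatments. Mcm2 stood at 21.6 RPKM in the control, 27.2 with strain, 18.5 in conditioned medium and 20.1 with both. Mcm5 stood at 10.8, 13.4, 7.45 and 8.81 RPKM in the same order. For all of the subunits, strain was the highest library and conditioned medium alone the lowest, although the conditioned-medium and combined libraries differed by only 10.41 against 10.45 RPKM for Mcm7.

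Mcm3 stood at 21.9, 24.3, 18.8 and 19.1 RPKM, Mcm4 at 12.5, 16.6, 10.7 and 11.7, Mcm6 at 19.9, 22.1, 15.6 and 17.3, and Mcm7 at 11.5, 15.03, 10.41 and 10.45. By length-scaled level Mcm3, Mcm2 and Mcm6 were the abundant subunits and Mcm5, Mcm7 and Mcm4 the scarcer ones in the control, with the scarcest at 10.8 RPKM and the most abundant at 21.9. Between the combined and the strain library, the subunits were 1.27-fold (Mcm3) to 1.52-fold lower (Mcm5, interval 1.31 to 1.76). Between conditioned medium and control, they were 1.10-fold (Mcm7) to 1.45-fold lower (Mcm5, 1.24 to 1.69), and the interval of Mcm7 (0.947 to 1.28) included 1.

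The factors that load the ring differed more among themselves. Cdc6, the loading ATPase, had 1.67 RPKM in the control, 2.49 with strain, 1.28 in conditioned medium and 1.25 with both, on 64 to 137 counts. The strain library stood apart from the other 3. Its fold was 1.49 higher (1.141 to 1.965) for strain against control and 1.998 lower (1.47 to 2.73) for both treatments against strain, the lowest ratio of any member in that comparison. Cdt1, its loading partner, followed the strain library only: it had 8.84, 12.9, 8.91 and 9.44 RPKM, and conditioned medium against control gave a fold of 1.01 (0.828 to 1.23).

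Orc1, the ATPase subunit of the origin recognition complex, had 1.70, 2.05, 1.47 and 1.38 RPKM, and was 1.48-fold lower (1.06 to 2.08) with both treatments than with strain. Orc6, another subunit, was nearly level across the libraries at 16.6, 18.1, 15.4 and 17.8 RPKM. Gmnn, the geminin gene, had 6.99, 7.34, 5.30 and 5.83 RPKM from 61 to 85 counts, and in each of the 5 comparisons the interval spanned 1. The table places Cdc6 at chr11:98907699-98923942 and Orc1 at chr4:108575620-108616030, and Orc1 overlaps Prpf38a on the opposite strand.

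Of the role groups, helicase activation genes had the lowest share with both conditioned-medium libraries below both others. It was 3 of the 8, near the 32.8% of all genes. The strain library was the highest for 6 of the 8, beside 5 of 8 primase and polymerase genes and 24.5% of all genes. Mcm10, which helps the assembled helicase start unwinding, was 1 of the 3 genes lower by medium. It had 2.23 RPKM in the control, 2.44 with strain, 1.31 in conditioned medium and 1.52 with both. It was 1.70-fold lower (1.31 to 2.22) in conditioned medium than in control and 1.61-fold lower (1.25 to 2.08) with both treatments than with strain. Cdc45 (3.85, 4.36, 3.42 and 3.09 RPKM) and Dbf4, the activating subunit of the CDC7 kinase (13.9, 16.7, 12.3 and 13.9), were the others, the Dbf4 values for control and both treatments being 13.95 and 13.86.

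The GINS genes, whose products form a complex with equal parts of each subunit, did not share an order. Gins1 had 2.26, 3.42, 1.75 and 2.92 RPKM, so that both strained libraries were above both unstrained ones, but on 30 to 59 counts. Its folds for strain were 1.51 (0.996 to 2.32) in ordinary medium and 1.67 (1.03 to 2.73) in conditioned medium. Gins2 had 10.7, 12.9, 11.03 and 9.34 RPKM, with the combined library lowest.

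Gins3 had 3.47, 4.72, 4.36 and 4.18 RPKM and Gins4 11.5, 12.6, 12.6 and 12.9, with the control lowest for each. In the control, Gins2 and Gins4 were thus at 10.7 and 11.5 RPKM where Gins1 and Gins3 were at 2.26 and 3.47. Cdc7, the kinase subunit, was likewise lowest in the control, at 5.85 RPKM, and at 6.52, 6.58 and 6.40 in the others. None of the folds of Gins3, Gins4 or Cdc7 for conditioned medium had an interval clear of 1, the highest being 1.26 (0.945 to 1.67) for Gins3.

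Primase and polymerase genes had the lowest median response to strain of any role group, a log2 ratio of 0.06 against 0.31 for licensing. Pole, the catalytic subunit of the leading-strand polymerase, stood at 5.22 RPKM in the control, 6.47 with strain, 3.62 in conditioned medium and 4.002 with both. It was 1.44-fold lower (1.24 to 1.68) in conditioned medium than in control and 1.62-fold lower (1.399 to 1.87) with both treatments than with strain. Its accessory subunit gene Pole2 went the other way at 4.21, 4.09, 4.42 and 4.88 RPKM, and its ratio of 1.19 for both treatments against strain (0.909 to 1.57) was the highest of any member. Pole2 overlaps Klhdc1 on the opposite strand, which had 76 to 96 counts beside 105 to 117 for Pole2.

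Prim1, the catalytic primase subunit, had 24.1, 27.3, 18.3 and 23.6 RPKM, and was 1.29-fold higher (1.10 to 1.51) with both treatments than in conditioned medium alone. Prim2, the large primase subunit, had 5.80, 5.55, 6.06 and 4.50 RPKM and was 1.35-fold lower (1.09 to 1.66) in that comparison, the lowest ratio of any member there. The primase subunits therefore stood on opposite sides of 1 in the same pair of libraries. Pola2 (11.6, 11.6, 10.1 and 10.6 RPKM) and Pola1 (3.87, 4.17, 2.96 and 3.51), of DNA polymerase alpha, had both conditioned-medium libraries below both others.

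Pold1, the catalytic subunit of the lagging-strand polymerase, had 7.70, 8.74, 7.01 and 6.36 RPKM, and its accessory subunit gene Pold3 had 6.81, 6.22, 5.73 and 5.83. Pold3 was among the 8 members that were lower with strain than in control, at 1.10-fold (0.909 to 1.32).

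All of the clamp and clamp loader genes had both conditioned-medium libraries below both others, against 32.8% of all genes. Pcna, the clamp, was among the more abundant members at 37.5 RPKM in the control, 41.5 with strain, 32.8 in conditioned medium and 35.1 with both. The Rfc genes encode the loader: Rfc2 had 19.3, 21.6, 17.7 and 17.8 RPKM, Rfc3 14.2, 16.2, 12.7 and 13.5, and Rfc1, the large subunit, 14.1, 14.5, 13.1 and 12.7. These differences were small, with folds of 1.14 to 1.22 for both treatments against strain.

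Rfc5 departed from the other loader genes, with 9.88, 11.97, 6.24 and 6.99 RPKM. It was 1.58-fold lower (1.25 to 2.02) in conditioned medium than in control and 1.71-fold lower (1.37 to 2.16) with both treatments than with strain. Rfc4 had 6.73, 6.60, 4.55 and 5.83 RPKM on 59 to 90 counts. It overlaps the far more abundant Eif4a2 on the opposite strand, with 3821 to 4784 counts, and if counting ignored strand its values would be uncertain. For Pcna, 3 annotated pseudogenes were listed, with at most 21 counts in a library beside at least 440 for Pcna itself, and how reads shared among copies were counted is not given in the sources used here.

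**Figure D2:**
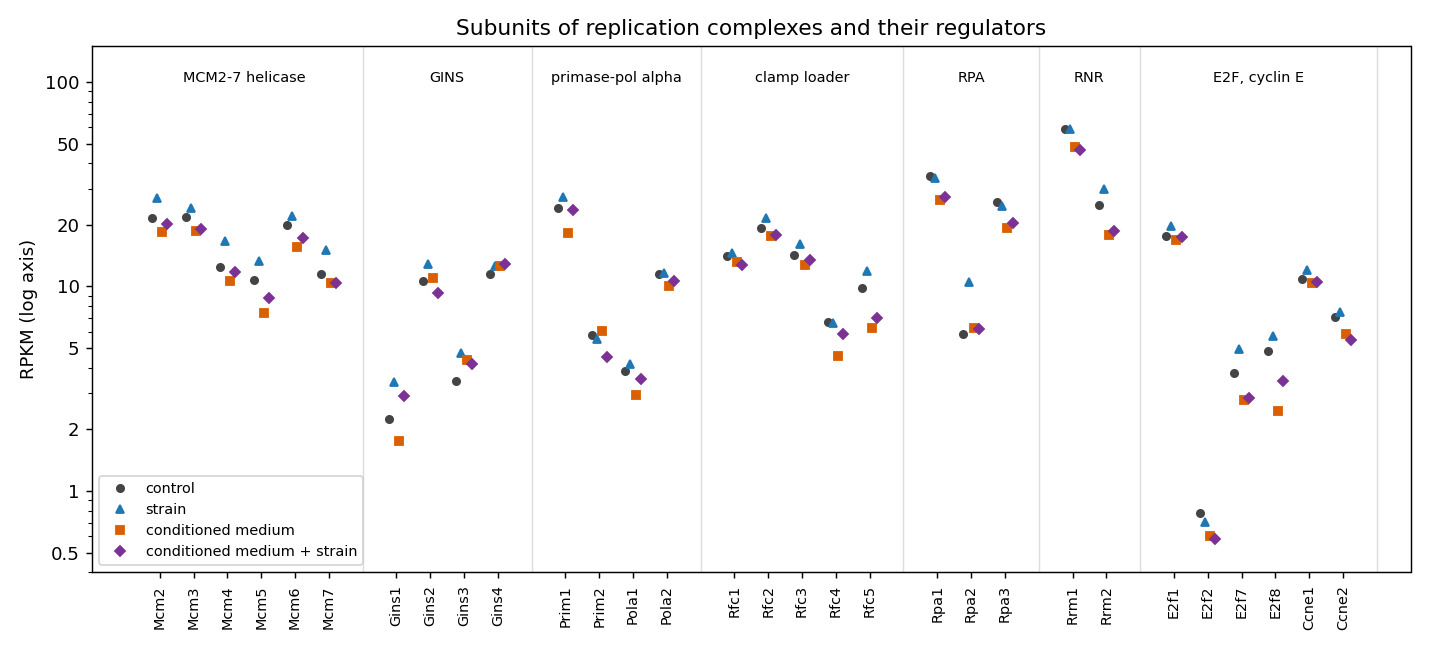
RPKM on a log axis of subunits of the named complexes and of E2F and cyclin E genes, with 1 point per library. Rpa2 lies well under Rpa1 and Rpa3, Gins1 and Gins3 under Gins2 and Gins4, and E2f2 stays under 1 RPKM in every library.

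The RPA genes, whose products coat single-stranded DNA as a trimer, behaved differently from each other. Rpa2 had 5.87 RPKM in the control, 10.5 with strain, 6.26 in conditioned medium and 6.17 with both. Only the strain library was high, on 200 counts against 110 to 119 in the others. Its fold of 1.78 (1.41 to 2.26) for strain against control was the highest of any member, and both treatments against strain gave 1.70-fold lower (1.34 to 2.16).

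Rpa1 had 34.8, 33.8, 26.4 and 27.4 RPKM and Rpa3 25.8, 24.9, 19.3 and 20.4, with little between control and strain and lower values in both conditioned-medium libraries. For Rpa1 the fold was 1.32 lower (1.20 to 1.44) without strain and 1.23 lower (1.13 to 1.35) with it. Fen1 and Lig1, which trim and seal Okazaki fragments, had 16.2, 17.3, 12.7 and 12.02 RPKM and 11.5, 14.2, 9.30 and 9.77 RPKM, and were 1.44-fold (1.24 to 1.67) and 1.45-fold lower (1.27 to 1.67) with both treatments than with strain.

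Among the repair genes of the list, Brca1, of homologous recombination, had 4.87, 5.85, 3.27 and 4.01 RPKM and was 1.49-fold lower (1.26 to 1.76) in conditioned medium than in control. Msh6, of mismatch repair, was more even at 18.4, 21.0, 17.6 and 16.9 RPKM. Exo1, an exonuclease, had 1.31, 1.95, 1.19 and 1.43 RPKM, with a fold of 1.49 (1.11 to 1.997) for strain. Ung, the uracil glycosylase gene, had 39, 43, 42 and 34 counts in the same order, and in all 5 comparisons its interval spanned 1.

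Of the genes for deoxynucleotide supply, ribonucleotide reductase set its subunits apart. Rrm1, the large subunit and the most abundant member, had 59.0 RPKM in the control, 58.7 with strain, 48.1 in conditioned medium and 46.5 with both. Rrm2, the small subunit whose protein is limiting outside S phase, had 24.9, 29.99, 17.8 and 18.6 RPKM. Strain against control gave 1.01-fold lower (0.951 to 1.06) for Rrm1 and 1.20-fold higher (1.08 to 1.34) for Rrm2. Both treatments against strain gave 1.26-fold lower (1.19 to 1.34) and 1.61-fold lower (1.42 to 1.83).

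The thymidylate genes were nearly flat outside the strain library. Tk1, thymidine kinase, had 6.98, 8.57, 6.83 and 6.94 RPKM, and Tyms, thymidylate synthase, had 2.70, 3.23, 2.84 and 2.86. Their folds for conditioned medium against control were 1.02 lower (0.811 to 1.29) and 1.05 higher (0.862 to 1.28).

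Among the G1/S regulators, the repressor E2F genes differed most. E2f8 had 4.84 RPKM in the control, 5.69 with strain, 2.46 in conditioned medium and 3.45 with both, on 104 to 242 counts. Both conditioned-medium libraries were low. Its fold of 1.97 lower (1.55 to 2.51) was the largest of any member for conditioned medium against control, beside 1.65-fold lower (1.33 to 2.05) for both treatments against strain, and it was 1.403-fold higher (1.08 to 1.83) with both treatments than in conditioned medium alone.

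E2f7, the related repressor, had 3.78, 4.93, 2.79 and 2.86 RPKM, and was 1.35-fold (1.12 to 1.64) and 1.72-fold lower (1.43 to 2.08) in the comparisons of conditioned medium without and with strain. The activator E2f1 was nearly level by contrast, at 17.7, 19.8, 16.9 and 17.4 RPKM, with folds of 1.05 lower (0.932 to 1.18) and 1.14 lower (1.02 to 1.28). E2f2, another activator, was below 1 RPKM throughout (0.782, 0.708, 0.600 and 0.579), on 29 to 43 counts, and its differences were not detectable at this depth. The table places E2f8 at chr7:48866429-48882073, where the lncRNA gene LOC108167326 overlaps it on the opposite strand with 10 to 33 counts, and E2f7 at chr10:110745424-110787384.

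The cyclin E genes encode the cyclins that activate CDK2 at the entry to S phase. Ccne1 had 10.8, 12.1, 10.4 and 10.5 RPKM and Ccne2 7.09, 7.52, 5.87 and 5.47. Both treatments against strain gave 1.15-fold lower (0.9499 to 1.38) for Ccne1 and 1.38-fold lower (1.14 to 1.66) for Ccne2. Conditioned medium against control gave 1.05-fold lower (0.865 to 1.26) for Ccne1 and 1.21-fold lower (1.01 to 1.45) for Ccne2. Ccne2 overlaps Ints8 on the opposite strand, which had 617 to 818 counts.

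The genes of replication-coupled chromatin showed the order of the whole set. Uhrf1, which brings maintenance DNA methylation to new strands, had 24.8 RPKM in the control, 30.7 with strain, 19.4 in conditioned medium and 19.8 with both. Chaf1a, the large subunit of the histone chaperone CAF-1, had 17.5, 20.1, 13.02 and 12.96 RPKM, and each gene was 1.55-fold lower (1.41 to 1.70 for Uhrf1, 1.37 to 1.75 for Chaf1a) with both treatments than with strain. Chaf1b, its partner subunit, was flatter at 6.43, 6.505, 6.22 and 5.35 RPKM.

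Conditioned medium plus strain against strain addresses how the cancer cells' medium alters strained osteoblasts. In this comparison 53 of 55 members had a ratio below 1, against 58.7% of all 11940 genes compared, with a median log2 ratio of -0.33 against -0.04 for all genes. A fold of at least 1.5 lower was reached by 11 members (Cdc6, E2f7, Rfc5, Rpa2, E2f8, Pole, Rrm2, Mcm10, Chaf1a, Uhrf1 and Mcm5), against 4.31% of all genes, and a fold of 1.5 higher by none, against 2.94%. No member reached a fold of 2, Cdc6 lying just under it, against 0.955% of all genes lower and 0.905% higher. The counting interval lay below 1 for 35 members, against 19.9%. The exceptions upward were Pole2 and Gins4, each with an interval that included 1.

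Conditioned medium against control addresses the medium without strain. Here 45 members had a ratio below 1, against 57.4%, with a median of -0.22 beside -0.04 for all 12069 genes compared. E2f8, Mcm10 and Rfc5 were at least 1.5-fold lower, a count of 3 against a background of 4.13%, and none was 1.5-fold higher, against 3.67%. No member reached a fold of 2, against 0.812% of all genes lower and 1.31% higher. The interval lay below 1 for 25 members, against 21.7%. The 10 members above 1 were Gins3, Cdc7, Ung, Gins4, Rpa2, Tyms, Pole2, Prim2, Gins2 and Cdt1, none with an interval above 1.

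**Figure D3:**
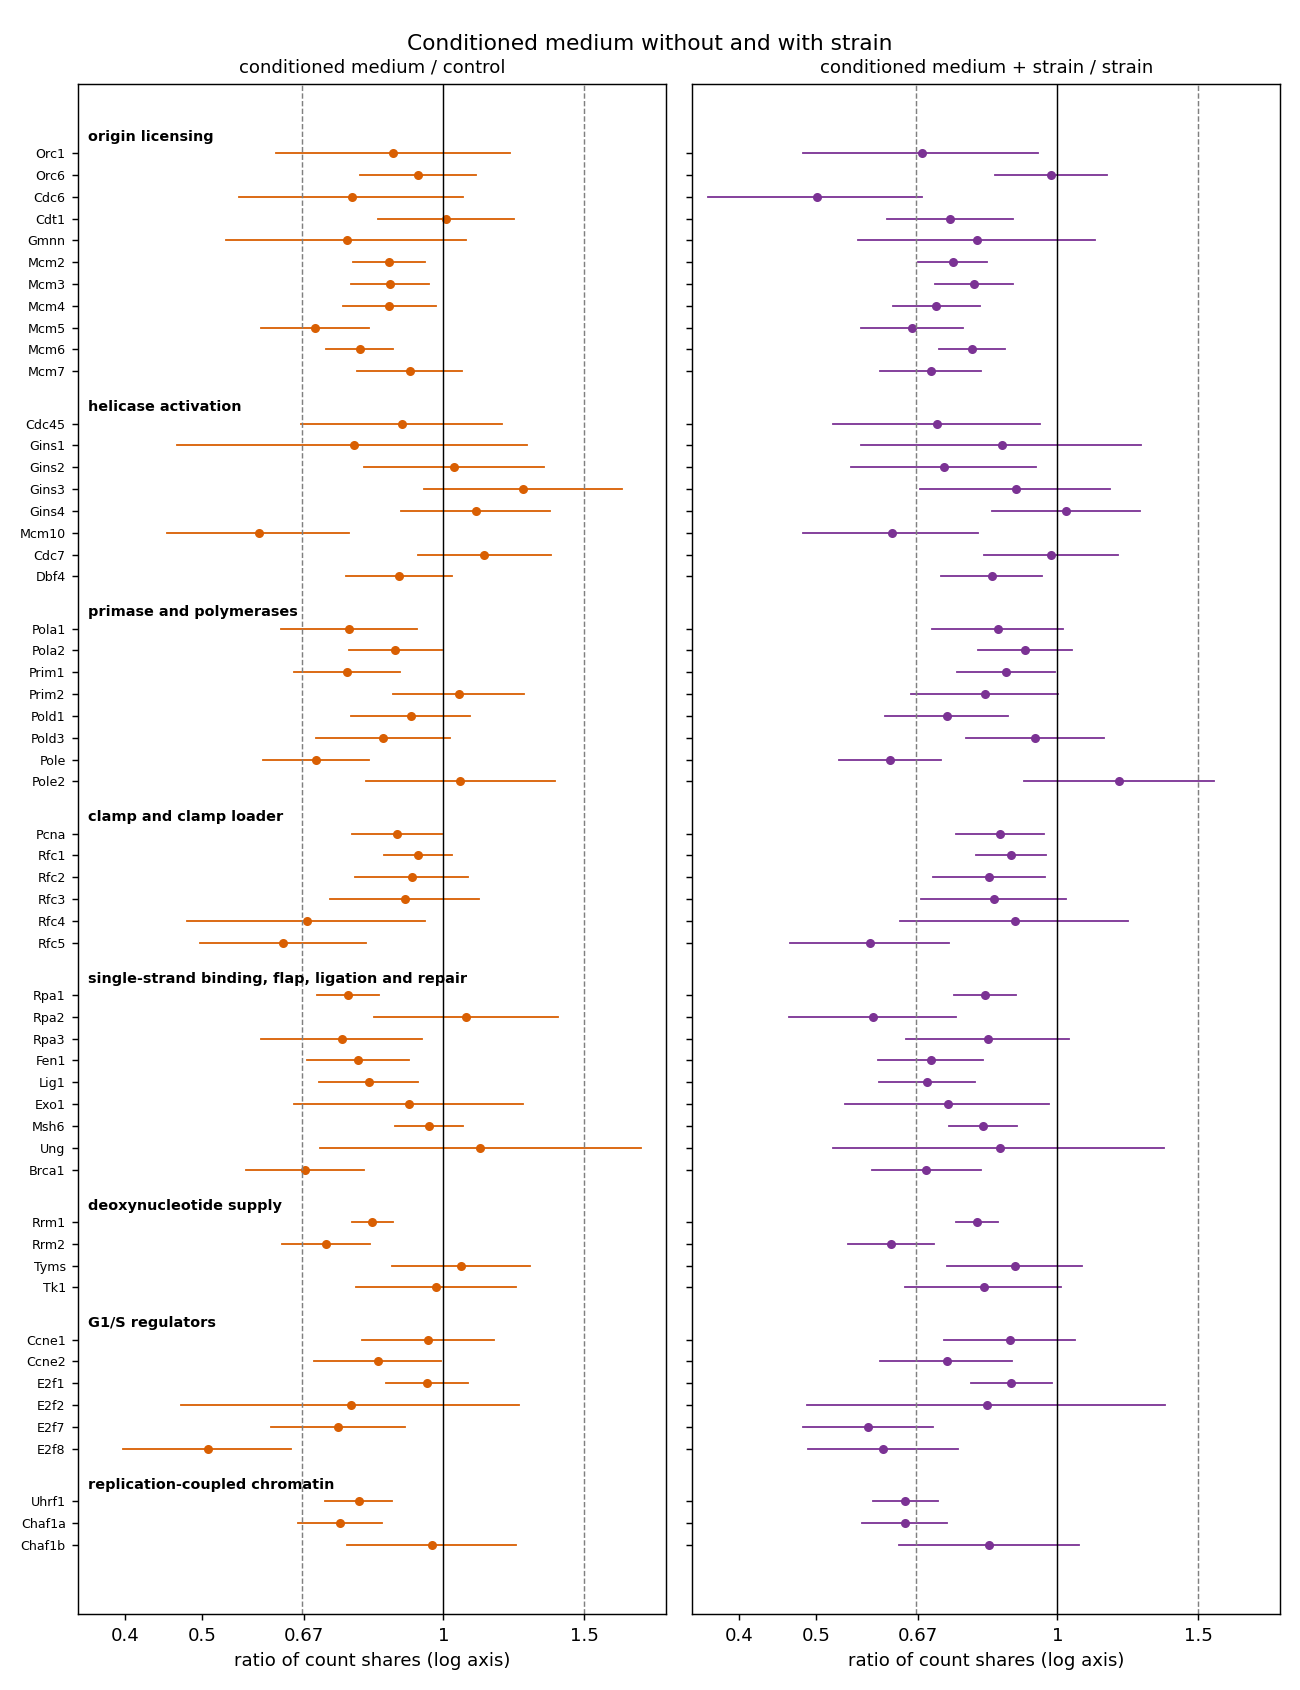
Ratio of count shares (log axis, points) with 95% counting intervals (lines) for each of the 55 members, for conditioned medium over control (left) and conditioned medium plus strain over strain (right). Dashed lines mark a fold of 1.5 either way. On the left 3 members lie past the lower line, and on the right 11.

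These comparisons of medium, without and with strain, have no library in common. In both of them 45 members had a ratio below 1, against 41.3% of all genes, and 21 had an interval below 1, against 10.6%. E2f8, Mcm10 and Rfc5 were at least 1.5-fold lower in both, against 1.69% of all genes. Across the 55 members the log2 ratios were correlated with r = 0.54 and rho = 0.52, and across 11758 genes with r = 0.58 and rho = 0.45. Genes are not independent replicates, and all points share the same libraries.

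**Figure D4:**
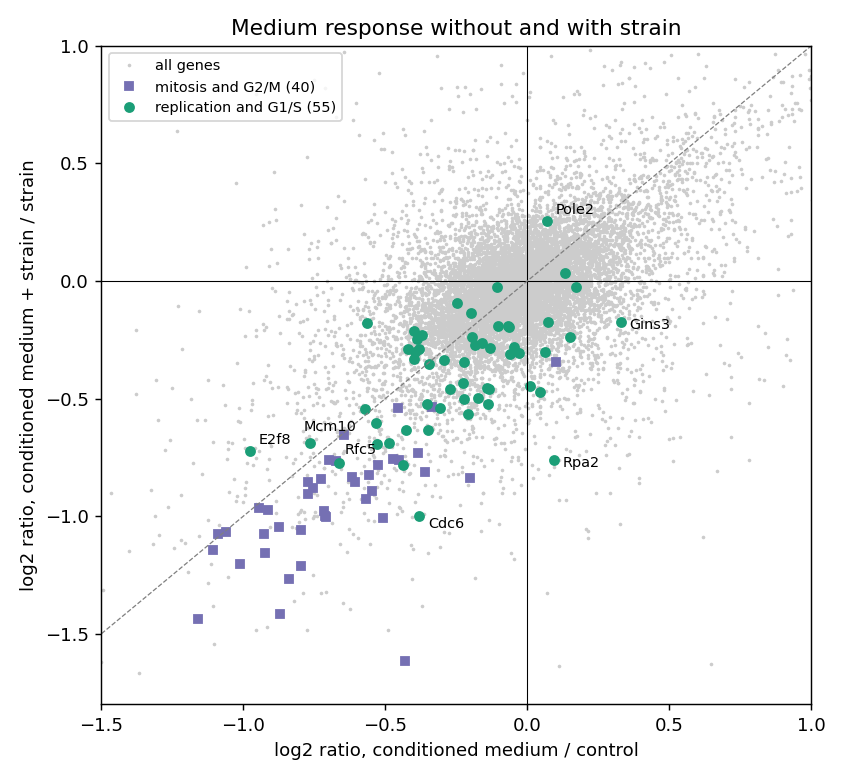
Log2 ratio of count shares for conditioned medium over control (horizontal axis) against conditioned medium plus strain over strain (vertical axis), for the 55 members, 40 mitosis genes and all genes within the axis limits. The dashed line marks equal values. Of the members, 45 have both ratios below 0.

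Strain against control addresses strain in ordinary medium. Of the members 47 had a ratio above 1, against 42.9% of all 12025 genes, and 8 a ratio below 1, against 57.1%, with a median log2 ratio of 0.18 beside -0.03. Rpa2 and Gins1 were at least 1.5-fold higher, a count of 2 against a background of 1.85%, and none was 1.5-fold lower, against 2.04%. No member reached a fold of 2, against 0.341% of all genes lower and 0.324% higher. The interval lay above 1 for 20 members, against 9.72%, and below 1 for none, against 16.1%. Since the strain library was the highest for 45 members, and it is also the reference of the comparison of both treatments with strain, these results are not independent of each other.

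The effect of strain in PC-3 medium is addressed by the combined library against conditioned medium alone. The ratios lay close to 1: 37 members were above it, against 39.8% of all 11910 genes, and 18 below it, against 60.2%, with a median of 0.04 beside -0.03. Gins1 alone was at least 1.5-fold higher, against 0.823%, and none was 1.5-fold lower, against 1.23%. No member reached a fold of 2, against 0.26% of all genes lower and 0.118% higher. The interval lay above 1 for 5 members (Gins1, E2f8, Prim1, Brca1 and Mcm5), against 3.53%, below 1 for Prim2, against 10.4%, and included 1 for the other 49.

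The strain comparisons in ordinary and in conditioned medium share no library. In both of them 32 members had a ratio above 1, against 19.1% of all genes, while only Mcm5 and Brca1 had intervals above 1 in both, against 0.912%. The log2 response to strain was lower in conditioned than in ordinary medium for 40 of the 55 members, against 51.3% of all genes, with a median difference of -0.15 beside -0.01 for all genes. Across members the paired strain ratios had r = 0.23 and rho = 0.15, and across all genes r = 0.11 and rho = 0.09.

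Both treatments against control does not depend on which of L and T is read as strain, but it takes O as the control and LT as both treatments. A ratio below 1 was found for 45 members, against 63.9% of all 12025 genes, with a median of -0.19 beside -0.07. None reached a fold of 1.5 either way, against 4.84% lower and 3.28% higher. The lowest ratios were 1.47-fold lower (1.14 to 1.903) for Mcm10, 1.41-fold (1.12 to 1.79) for Rfc5, 1.402-fold (1.13 to 1.75) for E2f8 and 1.35-fold (1.19 to 1.53) for Chaf1a. The highest were 1.29-fold higher (0.829 to 2.02) for Gins1 and 1.21-fold (0.900 to 1.62) for Gins3. The interval lay below 1 for 21 members, against 26.0%, and above 1 for none, against 11.2%.

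A list of 46 other replication and S-phase genes, among them the remaining ORC subunits, fork protection factors and mismatch repair genes, had the same order in part. The strain library was the highest for 30 of the 46, against 24.5% of all genes. For both treatments against strain 39 had a ratio below 1, against 58.7% of all genes, with a median of -0.31. Of the 46, 8 were at least 1.5-fold lower, against 4.31%. Chtf18, of an alternative clamp loader, was lowest at 1.82-fold lower (1.44 to 2.32), with 3.45 against 6.28 RPKM. At the other end stood Orc5, another ORC subunit, 1.19-fold higher (0.929 to 1.52).

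The 24 genes listed under cyclin D, CDKs and the RB pathway lay closer to all genes by their median. For both treatments against strain it was -0.11, beside -0.04 for all genes. A ratio below 1 was found for 17 of the 24, against 58.7% of all genes. By genes past a fold of 1.5 they were not close: 4 of the 24 were lower, against 4.31% of all genes. The 4 that were at least 1.5-fold lower included Mybl2, 1.79-fold lower (1.32 to 2.43), and the RB relative Rbl1, 1.66-fold lower (1.45 to 1.902). E2f6, a repressor, was 1.31-fold higher (1.16 to 1.47), and Ccnd3, cyclin D3, 1.17-fold higher (1.11 to 1.25). Of 7 CDK inhibitor genes, 4 had enough counts. All 4 were lower with both treatments than with strain, with a median of -0.17, where 58.7% of all genes were also lower. They ran from 1.08-fold lower (0.930 to 1.26) for Cdkn2d and 1.08-fold (1.02 to 1.15) for Cdkn1b to 1.17-fold (1.12 to 1.22) for Cdkn1a and 1.28-fold (1.15 to 1.44) for Cdkn2c.

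The 40 mitosis genes differed more than the replication genes in the same libraries. For both treatments against strain their median was -0.91 where the members' was -0.33. All 40 had an interval below 1, against 19.9% of all genes, and 37 were at least 1.5-fold lower, against 4.31%. The 40 ran from Cdc25c, 3.06-fold lower (2.35 to 4.02), and Ccnb2, 2.71-fold lower (2.17 to 3.39), to Spc25, 1.45-fold (1.25 to 1.68), and Pttg1, 1.27-fold (1.04 to 1.55). For conditioned medium against control their median was -0.71 where the members' was -0.22, and for strain against control 0.34 where the members' was 0.18. With 1 library per group the difference between the lists was not tested.

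**Figure D5:**
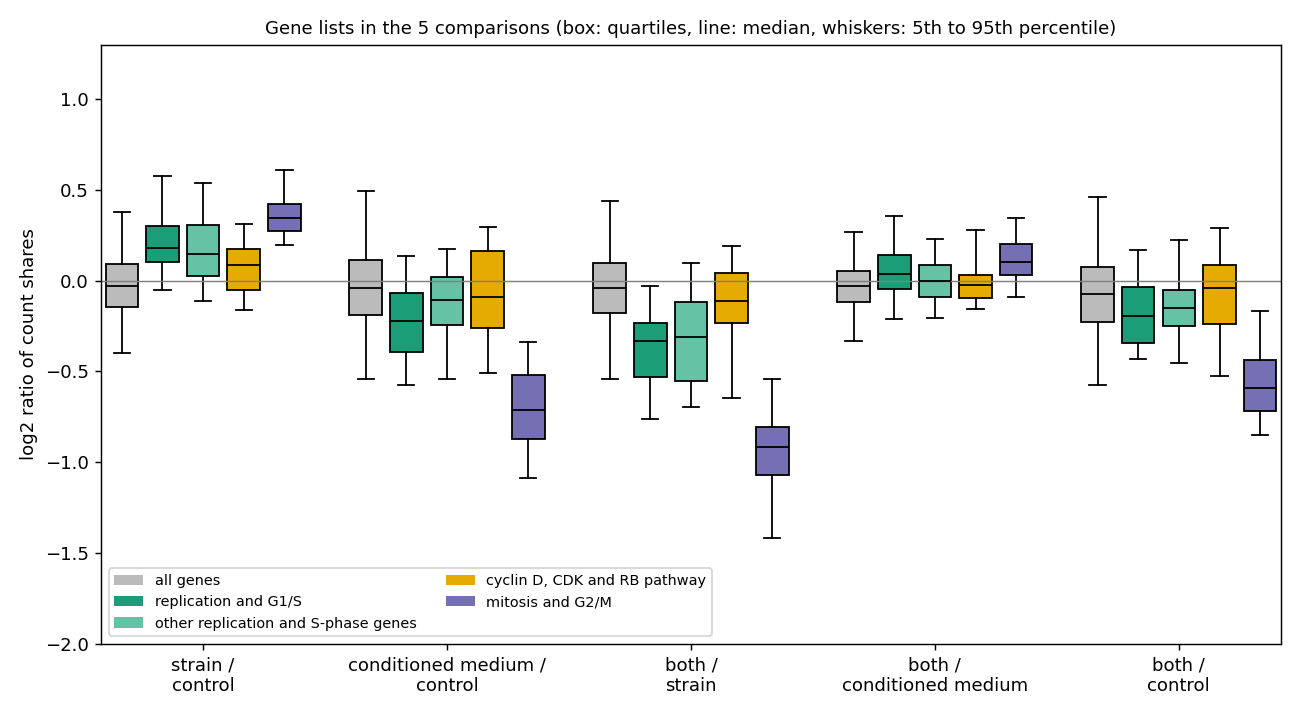
Log2 ratio of count shares in the 5 comparisons for all genes, the 55 members and the other lists (boxes span the quartiles, lines mark medians, whiskers run from the 5th to the 95th percentile). The members lie between all genes and the mitosis genes in each comparison with medians of 0.18, -0.22, -0.33, 0.04 and -0.19.

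The promoter words did not divide the members strongly. For both treatments against strain the median log2 ratio was -0.40 in the 18 members with an 8-base word (from -0.999 to 0.26) and -0.29 in the 27 without (from -0.78 to -0.03). For conditioned medium against control the medians were -0.24 and -0.20. Members with a stretch printed above included Cdc6 and E2f7, among the lowest ratios, and Gins3, with a ratio above 1 in conditioned medium.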

How the data were processed

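RNA of 4 libraries, 1 per group, was measured by sequencing. Libraries were made from Trizol-extracted RNA with a directional NEBNext kit, per the labels. Reads were aligned with HISAT2, and the build is named as mm9, per the submitters' processing notes. The table's positions are those of GRCm38: 28748 of 40033 genes matched by Entrez number had the chromosome and start of the GRCm38.p6 RefSeq table. Neither the counting tool nor its strand setting is given in the sources used here. The authors deposited a whole-number count per gene and library, and an RPKM value that was recomputed from count, length and library total to within a relative 5.05e-06.

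Ratios of count shares, their Clopper-Pearson intervals and list medians were computed with Python 3.11.15 and scipy 1.17.1, and checked on simulated data. Alternative scalings used TMM factors from edgeR 4.0.16 and median-of-ratios size factors. PCR copies of a molecule count as separate reads, so intervals cover counting error only. The members and lists were chosen with earlier results of these data known. Genes named with values were the 3 most abundant members of each role group, the 4 highest and 4 lowest ratios of each comparison, the subunit and paralog sets, and 2 at each end of every other list for both treatments against strain. Some genes that this rule names are not reported here. The remaining members and those past a fold of 1.5 were named for completeness. Opposite-strand partners are genes of the table that overlap a member's span with at least 10% of its counts.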

Additional observations from a re-analysis of the deposited data

Results flagged for a closer look

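For 2 members the strain ratio was above 1 in ordinary medium and just below 1 in conditioned medium, and the ratios differed by at least 1.5-fold. In conditioned medium both intervals included 1, so no reversal is shown. The share of all genes that meet this rule was not counted, so these 2 members cannot be set against a background. Rpa2 was 1.78-fold higher with strain in ordinary medium and 1.02-fold lower (0.777 to 1.33) with strain in conditioned medium. The difference was -0.86 on the log2 scale (-1.36 to -0.36, counting error only). Cdc6 was 1.49-fold higher and 1.03-fold lower (0.721 to 1.46), a difference of -0.62 (-1.24 to 0.00028). The Cdc6 interval thus included no difference. Cdt1, Mcm2, Mcm4, Mcm7, Msh6 and Uhrf1 did not meet the rule, but for each the interval of the difference lay wholly on the lower side. With 1 library per group these differences were not tested.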

How the results depend on the processing

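Each median log2 ratio of the members kept its sign under TMM scaling, median-of-ratios scaling, a protein-coding total, a minimum of 100 counts and log2(RPKM + 1), and in the 44 members with no opposite-strand partner (chosen after seeing the data). Dropping the count minimum could not alter them, since all 55 members met it. The ranges were 0.17 to 0.23 for strain against control, -0.23 to -0.18 for conditioned medium against control, -0.34 to -0.29 for both treatments against strain, 0.04 to 0.07 for both against conditioned medium and -0.19 to -0.12 for both against control. The count of members at least 1.5-fold higher with strain than in control, 2 in the report, was 5 under TMM, 4 under median-of-ratios scaling and under the protein-coding total, 1 with at least 100 counts and 1 on log2(RPKM + 1). The median log2 ratio of all genes also rose there, by 0.048 under TMM, 0.040 under median-of-ratios scaling and 0.028 under the protein-coding total. Counts under these settings have no share of all genes beside them, so their changes are not results about the members. For both treatments against conditioned medium the 1 member higher became 0 with at least 100 counts and on log2(RPKM + 1). For both treatments against strain the 11 members lower became 10 under TMM and median-of-ratios scaling and 8 on log2(RPKM + 1). For conditioned medium against control the 3 lower became 2 on log2(RPKM + 1). Among the 44 members with no opposite-strand partner, these counts of members lower were 10 and 2. At a fold of 2 the counts of 2, 3, 11 and 1 all became 0. No paired analysis was possible because each group has 1 library. Depth limits members with few counts, such as Ung, E2f2, Gins1 and Gmnn, whose intervals span most of the differences seen.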
